A study of Mus musculus with 4 samples.

Results

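The 10 genes described here encode plasma membrane carriers of cystine, large neutral, cationic and small neutral amino acids: Slc7a11, Slc3a2, Slc7a5, Slc7a1, Slc7a3, Slc38a1, Slc38a2, Slc1a4, Slc1a5 and Slc6a9. They were taken by GENCODE symbol from the 43432 Ensembl genes of the count table, and all 10 were found. Sequencing covered polyadenylated RNA of 4 tumours, borne under the skin by female C57BL/6 mice and grown from the single neuroblastoma line 9464D-GD2, which carries the ganglioside GD2. All 4 mice had received 5 treatments with 25 µg dinutuximab, an antibody against GD2, given 2 times per week. In 2 of them each dose also held 20 µg of small extracellular vesicles (sEVs), membrane vesicles released by cells of the same line. The comparison asks how added sEVs altered transporter expression under the antibody. Tumours from untreated mice, or from mice given sEVs without the antibody, were not analysed here. Tumours carry the numbers 3 and 4 in either group and are described as biological replicates.

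Cystine, the oxidised form of cysteine, enters cells in exchange for glutamate through system xc-, a pair of the light chain Slc7a11 and the heavy chain Slc3a2, and feeds glutathione synthesis. Slc3a2 also pairs with Slc7a5 (LAT1), which brings in leucine and other large neutral amino acids in exchange for glutamine. Slc7a1 and Slc7a3 (CAT1 and CAT3) carry arginine and lysine, Slc38a1 and Slc38a2 (SNAT1 and SNAT2) and Slc1a5 (ASCT2) carry glutamine and small neutral amino acids, Slc1a4 (ASCT1) carries serine and alanine, and Slc6a9 (GLYT1) carries glycine. Many of these genes are targets of ATF4, the transcription factor made when amino acids run short, and Slc7a11 is also a target of NRF2, the factor of oxidative stress. Tumours rich in MYC proteins are known for high glutamine uptake.

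Total counts were 26312447 and 24452699 for dinutuximab tumours 3 and 4, and 26164711 and 28187573 for sEV tumours 3 and 4. On the first principal component (45.3% of the variance) sEV tumour 3 scored 25.4, whereas scores of the remaining 3 ran from -14.1 to -3.78, so the value of each tested transporter without that tumour is given below. Of 8 neuroblastoma markers, Hand2 and Isl1 were measured in every library, while Dbh had 0 counts in all 4. With adjustment over all 13823 genes tested (edgeR quasi-likelihood, Benjamini-Hochberg), 0 (0.0%) were lower and 0 (0.0%) higher with sEVs, so none of the 10 transporters passed. At an unadjusted p under 0.05, 429 genes (3.1%) were lower and 341 (2.47%) higher. limma-voom called 0 genes (427 lower and 316 higher unadjusted) and DESeq2 called 38 lower and 17 higher, none of them a transporter of the 10. Exact permutation of 4 tumours cannot give a two-sided p below 0.333, and single genes were not tested that way. The edgeR p-values set each group difference against the spread within groups of these 4 tumours, moderated by the variance trend over all genes.

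Slc7a11 had few counts in all 4 tumours and the fewest in those given sEVs. It had 15 and 34 counts in dinutuximab tumours 3 and 4, and 2 and 7 counts in sEV tumours 3 and 4. On the CPM scale (the depth-scaled count, here on TMM-adjusted library sizes) these were 0.584 and 1.39 with dinutuximab and 0.0763 and 0.242 with sEVs. Both sEV tumours lay below both dinutuximab tumours, and 3 counts in a library correspond to between 0.104 and 0.123 CPM. The exact 95% Poisson intervals, which cover counting error only, ran from 0.327 to 0.964 CPM in dinutuximab tumour 3 and from 0.0975 to 0.5 CPM in sEV tumour 4, so these neighbouring libraries overlapped. Summed over the group, 49 counts stood against 9, a ratio of 5.98 with a counting interval from 2.91 to 13.9. The log2 fold change (sEV over dinutuximab) was -2.57 ± 0.69 (SE, 2 tumours per group) and the edgeR adjusted p 0.614. Slc7a11 passed the low-count filter only through the dinutuximab libraries, where it was higher. Its place among the tested genes was therefore not independent of the difference. Without sEV tumour 4 the log2 fold change was -3.60, and without sEV tumour 3 it was -2.01. It was -3.07 without dinutuximab tumour 3 and -1.82 without dinutuximab tumour 4. With no low-count filter it was -2.57 and passed (edgeR adjusted p = 0.00336), in a fit that called 262 of 22003 genes. In bulk tumours, fewer cells of a type and less RNA per cell cannot be told apart.

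**Figure D1:**
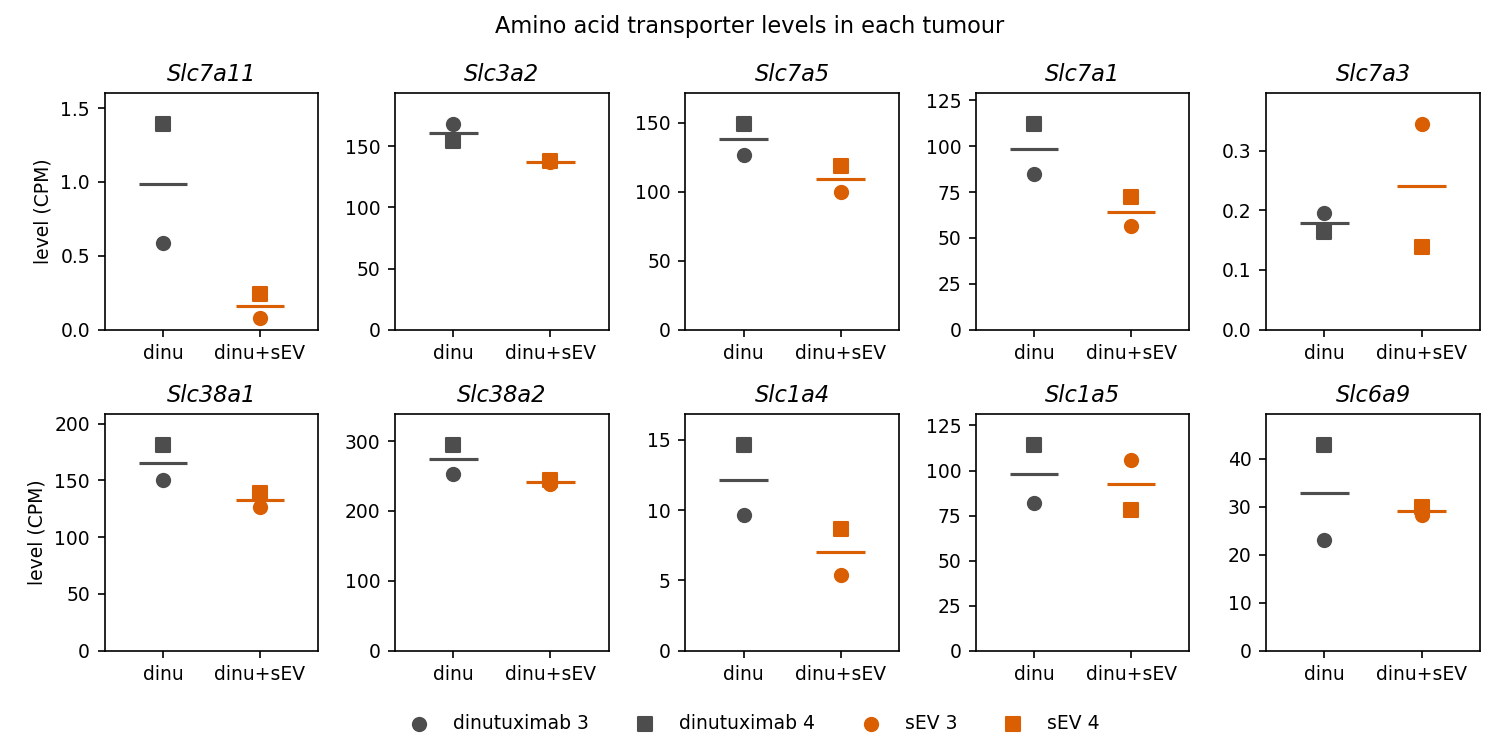
Level of each of the 10 transporters in each tumour (CPM, linear axis from 0, a separate scale per gene), with circles for tumours numbered 3, squares for tumours numbered 4 and a line at the group mean. For 7 genes, from Slc7a11 at 0.0763 to 1.39 CPM to Slc38a2 at 238 to 294 CPM, both sEV tumours lie below both dinutuximab tumours, and for Slc7a3, Slc1a5 and Slc6a9 the groups overlap.

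The start of Slc7a11 is shown because 2 copies of the ATF4 response element core lie in it. RefSeq (GRCm38.p6) gave windows from 250 bases before to 50 bases after an annotated start for 6 of the 10 transporters (9 windows in all), and none was matched for Slc7a5, Slc7a3, Slc38a1 and Slc1a5. Each window was searched on both strands for the ATF4 response element core TGATGNAA, the antioxidant response element core TGACNNNGC, bound by NRF2, and the E-box CACGTG, bound by MYC proteins. Capitals mark the matches in the sequences printed here 5′ to 3′ on the gene's strand. The Slc7a11 window lies at chr3:50443564-50443863 on the minus strand, the Slc1a4 window at chr11:20332664-20332963 on the minus strand, and the Slc7a1 window at chr5:148399855-148400154 on the minus strand.
Slc7a11: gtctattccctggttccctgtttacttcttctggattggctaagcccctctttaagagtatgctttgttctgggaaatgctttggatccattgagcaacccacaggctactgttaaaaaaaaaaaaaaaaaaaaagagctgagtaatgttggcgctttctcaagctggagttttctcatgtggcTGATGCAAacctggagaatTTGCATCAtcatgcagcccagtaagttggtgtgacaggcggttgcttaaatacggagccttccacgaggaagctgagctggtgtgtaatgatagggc
Slc1a4: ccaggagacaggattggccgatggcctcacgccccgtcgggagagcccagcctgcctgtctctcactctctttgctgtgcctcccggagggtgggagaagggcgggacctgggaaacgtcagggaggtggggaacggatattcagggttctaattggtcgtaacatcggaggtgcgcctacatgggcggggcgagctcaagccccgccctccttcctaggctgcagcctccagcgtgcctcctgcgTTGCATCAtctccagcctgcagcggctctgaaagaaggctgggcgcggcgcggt
Slc7a1: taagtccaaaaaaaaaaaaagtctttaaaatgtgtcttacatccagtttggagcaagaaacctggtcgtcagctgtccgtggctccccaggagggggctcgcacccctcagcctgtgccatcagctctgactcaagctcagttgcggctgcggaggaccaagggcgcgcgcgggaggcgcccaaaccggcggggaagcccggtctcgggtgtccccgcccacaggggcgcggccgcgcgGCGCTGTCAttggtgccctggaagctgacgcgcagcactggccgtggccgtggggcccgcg

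In Slc7a11 the first match begins 66 bases before the start and the second, on the opposite strand, 47 bases before it. In Slc1a4 a single match, on the opposite strand, begins 4 bases before the start. Of all 32851 promoter windows, 3.97% held at least 1 ATF4 core and 0.07% held 2 or more. The antioxidant core, held by 12.4% of all windows, was found once in Slc7a1 (capitals above), once in Slc38a2 and once in each of 2 of the 3 Slc6a9 windows. The E-box, held by 7.15% of all windows, was found in none of the 9. No match of the 3 motifs was found in the Slc3a2 window, and none in the other Slc7a1 window. A match is a string of letters in this window and was not measured as a binding site.

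Slc3a2, the heavy chain shared by these carriers, had 168 and 154 CPM in dinutuximab tumours 3 and 4 and 137 and 138 CPM in sEV tumours 3 and 4. The groups did not overlap, but the lowest dinutuximab value exceeded the highest sEV value only 1.12-fold. Its log2 fold change was -0.23 ± 0.13 (SE, edgeR adjusted p = 0.888), and -0.24 without sEV tumour 3. Slc7a5, the light chain for large neutral amino acids, had 127 and 149 CPM with dinutuximab and 99.6 and 119 CPM with sEVs. Here too both sEV tumours were the lower ones, by 1.06-fold between the nearest tumours, where tumours within a group differed 1.17-fold and 1.20-fold. The log2 fold change was -0.33 ± 0.15 (SE, adjusted p = 0.885). It was -0.21 without sEV tumour 3 and also -0.21 without dinutuximab tumour 4.

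The chains of heteromeric carriers can be compared per kilobase of exon. On that scale (CPM per kilobase) Slc3a2 averaged 42.3, Slc7a5 33.3, Slc7a6 17.1, Slc7a7 3.45 and Slc7a8 2.34 over the 4 tumours. Slc7a6 and Slc7a7 encode light chains that exchange cationic for neutral amino acids, and Slc7a8 encodes LAT2, a second carrier of neutral amino acids. Slc7a11 averaged 0.0412 on the same scale, and Slc7a10 had 0 counts in every library, which allows up to 3 counts in each. Slc7a5 made up 60.4% and 64.3% of the summed light chains in the dinutuximab tumours and 53.3% and 57.9% in the sEV tumours. Slc7a11 made up 0.0742% and 0.160% with dinutuximab and 0.0109% and 0.0313% with sEVs. Nearly all light chain RNA in these tumours was therefore of other carriers than the cystine antiporter. The summed light chains were 1.19 and 1.43 times the heavy chain with dinutuximab and 1.30 and 1.43 times with sEVs, so that the balance of light to heavy chain RNA overlapped between the groups.

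**Figure D2:**
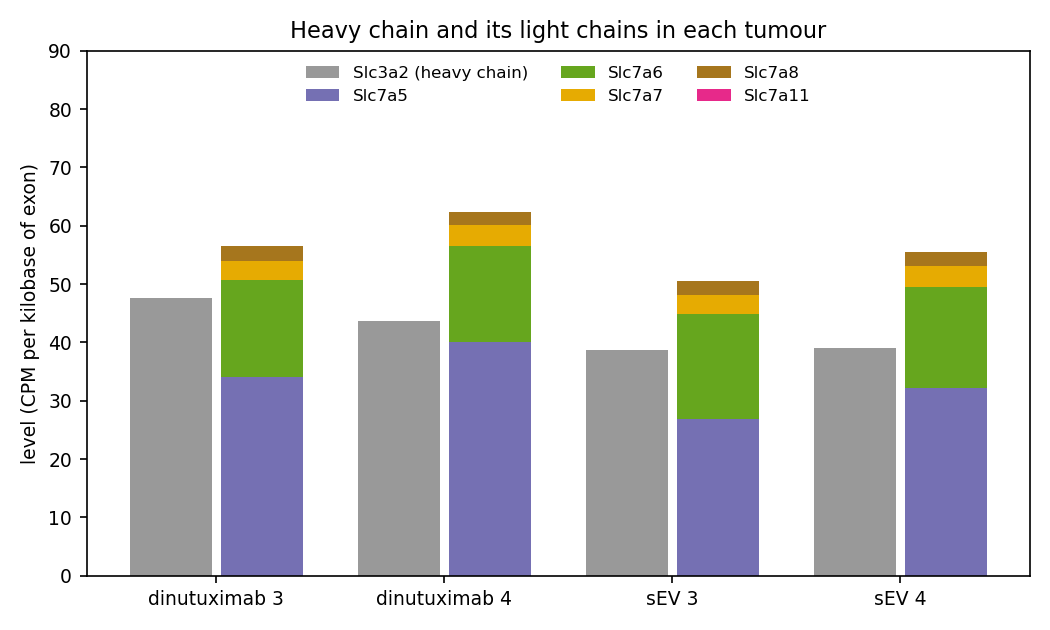
Level per kilobase of exon (CPM per kilobase) of the heavy chain Slc3a2 (grey bar) and of its light chains (stacked bar) in each tumour. Slc7a5 is the largest light chain part in all 4 tumours, at 26.9 to 40.1, and Slc7a11, at no more than 0.0999, is too small to see.

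Among the cationic carriers, Slc7a1 was the member above 5 CPM with the lowest edgeR p. It had 84.7 and 112 CPM in dinutuximab tumours 3 and 4 and 56.5 and 72.3 CPM in sEV tumours 3 and 4. The groups did not overlap, with 1.17-fold between the nearest tumours and 1.33-fold and 1.28-fold between tumours of a group. The means were 98.4 ± 19.5 CPM and 64.4 ± 11.2 CPM (SD, n = 2). The log2 fold change was -0.61 ± 0.18 (SE, adjusted p = 0.692). It was -0.80 without sEV tumour 4 and also -0.80 without dinutuximab tumour 3. It was -0.45 without sEV tumour 3 and -0.40 without dinutuximab tumour 4. With no low-count filter Slc7a1 had -0.62 and passed (edgeR adjusted p = 0.0114), in a fit that called 262 of 22003 genes. Slc7a3, a carrier best known from neurons, had 5 and 4 counts with dinutuximab and 9 and 4 with sEVs, or between 0.139 and 0.344 CPM. It was under the low-count filter in all 4 libraries and was not tested, and a ratio of its summed counts (dinutuximab over sEV) of 0.761 had a counting interval from 0.287 to 1.92. Per kilobase, Slc7a1 exceeded Slc7a3 between 54.0-fold and 225-fold in the 4 tumours.

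Of the carriers of small neutral amino acids and glutamine, 3 had lower values in both sEV tumours and Slc1a5 did not. Slc38a2, the sodium-coupled carrier whose amount responds to amino acid supply, had 253 and 294 CPM with dinutuximab and 238 and 245 CPM with sEVs. The nearest tumours differed 1.03-fold, and with libraries scaled by total count the groups overlapped. Its log2 fold change was -0.18 ± 0.13 (SE, adjusted p = 0.909), -0.17 without sEV tumour 3 and -0.07 without dinutuximab tumour 4. Its relative Slc38a1 had 150 and 181 CPM with dinutuximab and 127 and 139 CPM with sEVs (-0.31 ± 0.14, adjusted p = 0.885). The Slc38a1 fold change was -0.26 without sEV tumour 3 and -0.17 without dinutuximab tumour 4. Per kilobase, Slc38a2 exceeded Slc38a1 between 3.17-fold and 3.65-fold in the 4 tumours with all exons counted, and between 1.93-fold and 2.22-fold with the longest transcript.

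Slc1a4, the serine and alanine exchanger whose start holds the ATF4 core printed above, had 9.62 and 14.6 CPM in dinutuximab tumours 3 and 4 and 5.38 and 8.66 CPM in sEV tumours 3 and 4. The groups did not overlap, although tumours of a group differed 1.51-fold and 1.61-fold and the nearest tumours of different groups only 1.11-fold. The log2 fold change was -0.78 ± 0.29 (SE, adjusted p = 0.829). Without sEV tumour 4 it was -1.17, and without sEV tumour 3 it was -0.49. It was -0.45 without dinutuximab tumour 4 and -1.05 without dinutuximab tumour 3. Slc1a5, the glutamine exchanger of the same family, had 81.9 and 114 CPM with dinutuximab and 106 and 78.3 CPM with sEVs. The highest and the lowest tumour stood in different groups and the groups overlapped (-0.09 ± 0.20, adjusted p = 0.971). Its sign turned without dinutuximab tumour 4 (0.17) and without sEV tumour 4 (0.12), and it was -0.33 without sEV tumour 3 and -0.31 without dinutuximab tumour 3. Per kilobase, Slc1a5 exceeded Slc1a4 7.37-fold to 18.6-fold, the highest ratio being in sEV tumour 3.

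Slc6a9, the glycine carrier, which red blood cell precursors also use, had 23.0 and 42.8 CPM in dinutuximab tumours 3 and 4 and 28.2 and 29.9 CPM in sEV tumours 3 and 4. Both sEV values lay between the dinutuximab values, which differed 1.86-fold, and the log2 fold change was -0.18 ± 0.26 (SE, adjusted p = 0.950). It was 0.34 without dinutuximab tumour 4, -0.56 without dinutuximab tumour 3 and -0.14 without sEV tumour 3. All 6 red blood cell markers were higher in both sEV tumours, where 18.1% of all genes tested were. Their summed level was 35.0 and 21.3 CPM with dinutuximab and 70.3 and 42.5 CPM with sEVs. The part of these markers in the Slc6a9 value was not tested. Exons of Slc6a9 share 1429 bases with Ccdc24 and 46 with B4galt2, both on the opposite strand, so its counts are uncertain without a stated strand setting. Ccdc24 had no more than 1.64 CPM in any library. B4galt2, above Slc6a9 in every tumour, had 43.7 and 49.0 CPM with dinutuximab and 71.9 and 55.2 CPM with sEVs.

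The members were chosen with earlier results of these data known, so their counts beside the shares of all genes are a description only. Across the members, 7 of 10 had both sEV tumours below both dinutuximab tumours, where 16.5% of all genes tested did. None, 0 of 10, had both above, where 18.1% of all genes did. Leaving aside Slc7a11 and Slc7a3, each at 1.39 CPM or less, the other 8 averaged at least 5 CPM and all passed the filter in both groups. Of these 8, 6 were in that class, 8 had negative fold changes (49.7% of all genes) and 2 had an unadjusted p under 0.05 (3.1% of all genes lower). Their median log2 fold change was -0.27, beside 0.00 for all genes tested. Without sEV tumour 3, the library that stood apart, 8 were negative (52.9% of all genes) and the median was -0.25. Without dinutuximab tumour 4, 6 were negative (48.0% of all genes) and the median was -0.19. Without dinutuximab tumour 3, 8 were negative (48.0% of all genes) and the median was -0.44. Without sEV tumour 4, 7 were negative (51.1% of all genes) and the median was -0.31. Dinutuximab tumour 4 was the highest of the 4 libraries for 8 of the 10 members, and sEV tumour 3 the lowest for 7. The 10 genes summed to 897 and 1063 CPM in dinutuximab tumours 3 and 4 and to 798 and 831 CPM in sEV tumours 3 and 4.

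**Figure D3:**
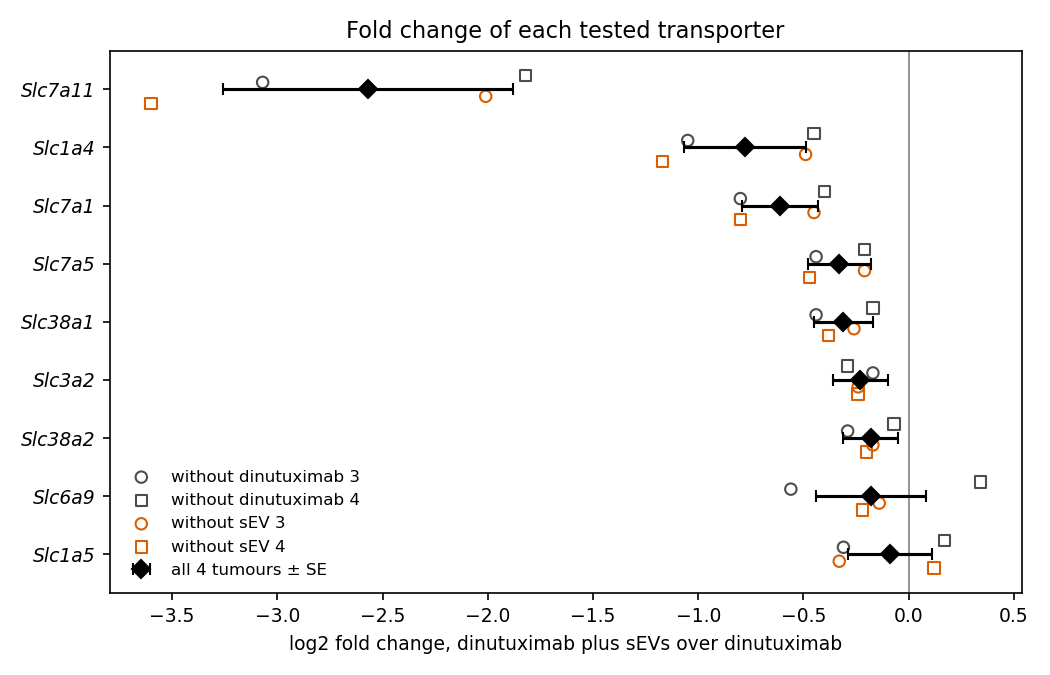
Log2 fold change (sEV over dinutuximab) of the 9 tested transporters, with diamonds and SE bars for all 4 tumours and open symbols for fits without 1 tumour. All 9 diamonds are negative, from -2.57 for Slc7a11 to -0.09 for Slc1a5, and open symbols cross 0 for Slc6a9 (0.34) and Slc1a5 (0.17 and 0.12).

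Markers of other cells and signs of tissue state also differed between the tumours. Among all genes tested, 16.5% were lower and 18.1% higher in both sEV tumours, shares to set beside the marker counts below. Of 5 endothelial markers, 4 were lower in both sEV tumours (summed 116 and 123 CPM with dinutuximab, 95.1 and 89.1 CPM with sEVs), and of 6 macrophage markers 4 were higher (1024 and 1072 CPM against 1195 and 1202 CPM). Of 6 fibroblast markers, 3 were lower and 3 higher. Neutrophil markers summed to no more than 5.78 CPM, with Ly6g at 0 counts, and T and NK cell markers to no more than 4.85 CPM. Of 5 skeletal muscle markers, 2 were lower in both sEV tumours, with sums of 7.63 and 8.14 CPM with dinutuximab and 4.66 and 2.98 CPM with sEVs. Immediate early and heat shock genes can respond to how a tumour is handled, and 6 of 10 were lower in both sEV tumours (639 and 612 CPM against 518 and 523 CPM). Ribosomal RNA reads, gathered by 5 genes of the table, made up 5.72% and 5.97% of all counts in the dinutuximab tumours, against 4.77% and 4.07% in the sEV tumours. The part of these differences in the transporter values was not tested.

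Per kilobase of exon, the 10 transporters fell into 4 tiers that did not overlap in any tumour. Slc3a2 (42.3 ± 4.24 CPM per kilobase, SD over 4 tumours), Slc7a5 (33.3 ± 5.47), Slc38a2 (29.1 ± 2.85) and Slc1a5 (22.8 ± 4.25) were highest, and each overlapped its neighbour in this order. Every tumour value of Slc1a5 lay above every value of the next gene, Slc38a1 (8.67 ± 1.34). Slc38a1, Slc7a1 (7.06 ± 2.04) and Slc6a9 (6.03 ± 1.63) overlapped in turn, and Slc1a4 (2.43 ± 0.968) lay apart below them. Slc7a3 (0.0555 ± 0.0243) and Slc7a11 (0.0412 ± 0.0420) came last, apart from the rest, and overlapped each other. With the longest transcript as the length, 8 of the 10 kept their place, and Slc38a2 and Slc7a5 changed places. The gaps below Slc1a5, Slc6a9 and Slc1a4 remained, but the tiers were then not the same 4. Slc3a2 lay apart above Slc38a2 (lowest value 48.6 against highest 48.1), and Slc38a1 apart above Slc7a1 (17.5 against 15.6).

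**Figure D4:**
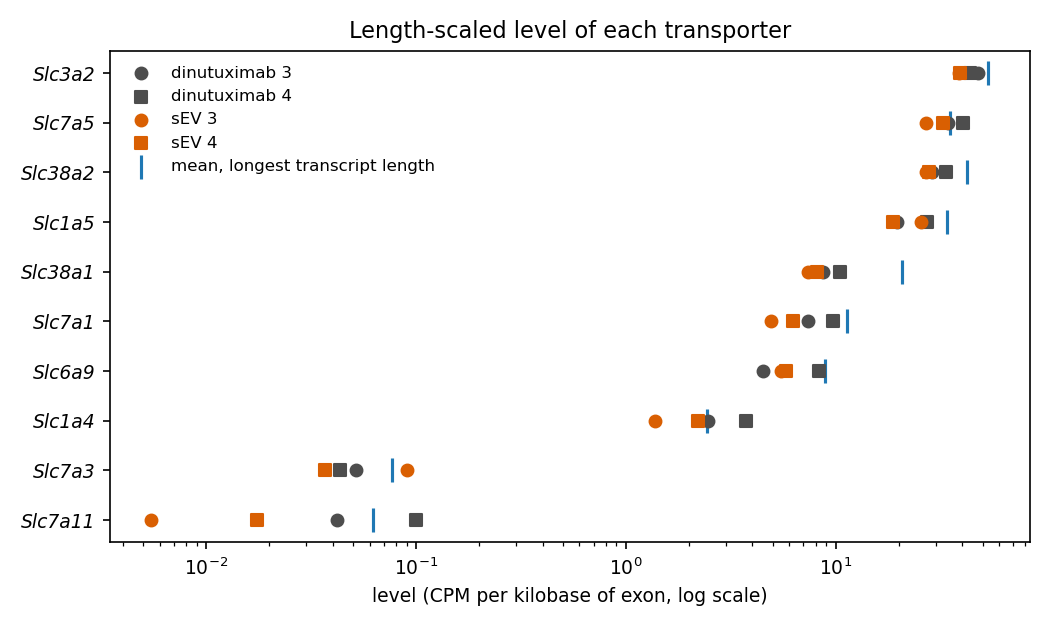
Level per kilobase of exon in each tumour (log axis) for the 10 transporters, ordered by their mean, with a blue bar at the mean when the longest transcript sets the length. Slc3a2, Slc7a5, Slc38a2 and Slc1a5 lie between 18.8 and 47.6, and Slc7a3 and Slc7a11 below 0.1.

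Of 30 other genes of amino acid carriers and their relatives, 16 were tested and 14 had too few counts. Of the 16, 9 had negative and 7 positive fold changes, with a median of -0.01, and none passed. The groups did not overlap in 4 lower (16.5% of all genes) and 1 higher (18.1% of all genes), and none passed with any 1 tumour left out. Without sEV tumour 3 the split was 11 negative and 5 positive. Slc6a8, which carries creatine, had 133 and 149 CPM with dinutuximab and 110 and 87.6 CPM with sEVs (-0.51 ± 0.15, adjusted p = 0.696). Slc7a2, the arginine carrier of macrophages and liver, had 4.52 and 4.99 CPM against 3.51 and 3.43 CPM (-0.45 ± 0.26, adjusted p = 0.901). The light chain gene Slc7a6 had 75.7 and 75 CPM against 82.0 and 79.3 CPM (0.10 ± 0.12, adjusted p = 0.947), and Slc7a8 overlapped between groups (0.04 ± 0.19). The remaining named genes, Slc43a1 (-0.83 ± 0.65), Slc38a4 (-0.56 ± 0.40), Slc43a2 (0.17 ± 0.20), Slc36a4 (0.09 ± 0.16) and Slc38a9 (0.07 ± 0.21), all overlapped. The glutamate carrier genes Slc1a2 and Slc1a3, typical of astrocytes, had at most 3 counts in a library.

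Of 17 regulators of these transporters, all tested, 10 had negative and 7 positive fold changes (median -0.13) and none passed. Atf4 itself had 308 and 294 CPM with dinutuximab and 295 and 254 CPM with sEVs, overlapping values with a log2 fold change of -0.13 ± 0.13 (SE, adjusted p = 0.934). ATF4 is set largely by translation, which RNA counts do not measure. Atf3, a stress factor induced by ATF4 and also an immediate early gene, had 21.1 and 16.7 CPM against 7.79 and 9.84 CPM (-1.10 ± 0.21, adjusted p = 0.404). The Atf3 log2 fold change was -0.95 without sEV tumour 3 and -1.28 without sEV tumour 4. It was -0.93 without dinutuximab tumour 3 and -1.26 without dinutuximab tumour 4. Cebpb, an ATF4 partner, had 102 and 110 CPM against 67.3 and 82.6 CPM (-0.50 ± 0.14, adjusted p = 0.676), and Ddit3, which encodes CHOP, 15.3 and 11.2 CPM against 9.05 and 9.42 CPM (-0.52 ± 0.21, adjusted p = 0.861). Nfe2l2, which encodes NRF2, was the one regulator with higher values in both sEV tumours, at 193 and 199 CPM against 151 and 155 CPM (0.36 ± 0.12, adjusted p = 0.772). Its inhibitor Keap1 overlapped between the groups (0.03 ± 0.13), as did the kinases of eIF2alpha Eif2ak4, which senses uncharged tRNA (0.12 ± 0.16), and Eif2ak2 (0.08 ± 0.15). Ppp1r15a, a phosphatase subunit of the same pathway, had -0.30 ± 0.16 (adjusted p = 0.887).

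Genes linked to cystine and glutathione were split. Of 10 listed, 9 were tested, 3 had negative and 6 positive fold changes (median 0.05), and none passed. The groups did not overlap in 3 lower (16.5% of all genes) and 2 higher (18.1% of all genes). Chac1, which degrades glutathione, had 2.41 and 4.46 CPM with dinutuximab and 0.954 and 0.901 CPM with sEVs (-1.88 ± 0.40, adjusted p = 0.463). The Chac1 log2 fold change was -1.93 without sEV tumour 3 and -1.84 without sEV tumour 4. It was -2.26 without dinutuximab tumour 3 and -1.38 without dinutuximab tumour 4. Cth, which makes cysteine from cystathionine, had 1.21 and 1.80 CPM against 0.420 and 0.277 CPM (-2.10 ± 0.47, adjusted p = 0.463). These 2 genes, like Slc7a11, stood at low levels with both sEV tumours the lower ones. The glutathione synthesis genes had small fold changes. Gclc had 26.2 and 29.4 CPM with dinutuximab and 30.4 and 31.5 CPM with sEVs, higher in both sEV tumours (0.15 ± 0.15, adjusted p = 0.926). Gclm (0.05 ± 0.15) and Gss (0.05 ± 0.15) overlapped between the groups. Gpx4, the glutathione peroxidase that removes lipid peroxides, had 424 and 361 CPM against 469 and 351 CPM (0.06 ± 0.17, adjusted p = 0.975). Gsr, which regenerates glutathione, was lower in both sEV tumours (-0.17 ± 0.13). Cd44, whose product binds and stabilises the Slc7a11 protein, was higher in both (0.11 ± 0.12).

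Of 11 genes of amino acid sensing and glutamine use, 6 had negative and 5 positive fold changes (median -0.01) and none passed. The leucine sensor Sesn2, another ATF4 target, had 24.2 and 29.8 CPM with dinutuximab and 19.2 and 19.2 CPM with sEVs (-0.49 ± 0.16, adjusted p = 0.750). Its relative Sesn1, a p53 and FOXO target, stood the other way, with 24.5 and 25.7 CPM against 34.6 and 34.4 CPM (0.46 ± 0.14, adjusted p = 0.716). Glul, the glutamine synthetase, had 111 and 113 CPM against 138 and 124 CPM (0.23 ± 0.13, adjusted p = 0.901). Rraga, Rptor and Depdc5, which belong to the lysosomal signalling of amino acids to mTORC1, overlapped between the groups, and Nprl2 had -0.09 ± 0.15.

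**Figure D5:**
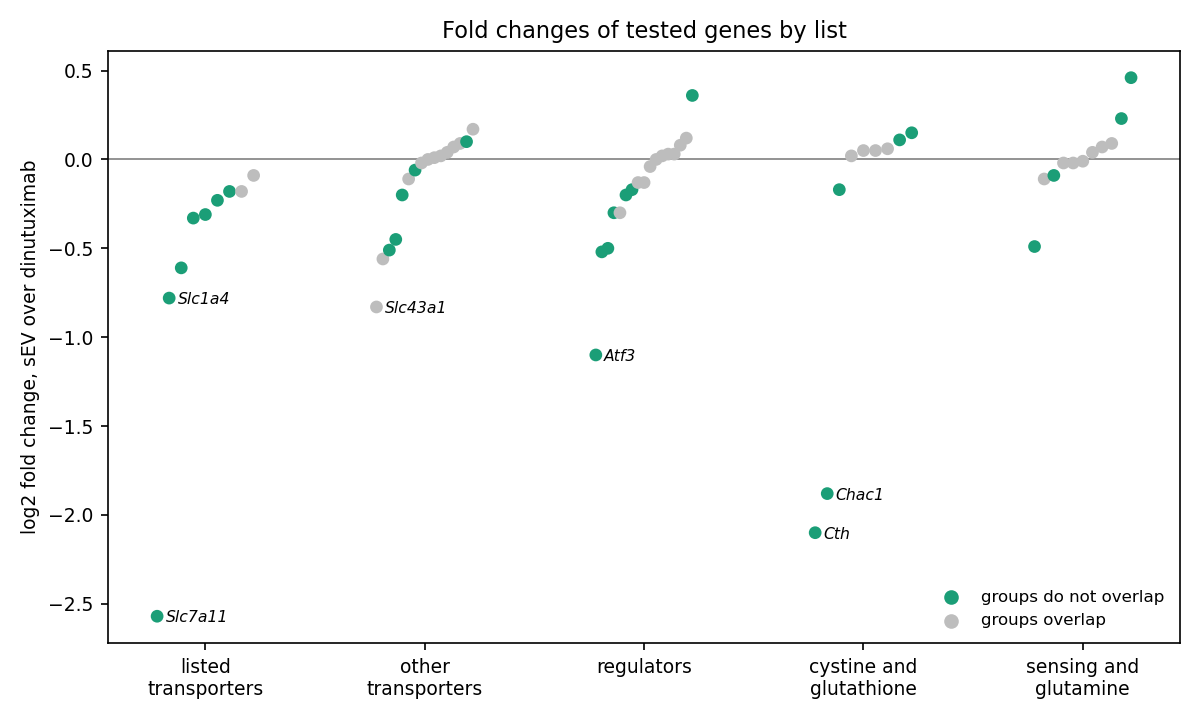
Log2 fold change (sEV over dinutuximab) of each tested gene in the 5 lists, coloured by whether the 2 groups overlap, with genes past 0.75 in size named. Slc7a11, Cth, Chac1 and Atf3 lie lowest, at -2.57, -2.10, -1.88 and -1.10.

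The genes whose pattern over the 4 libraries was most like that of Slc7a11 were sought among 10279 tested genes with a mean above 5 CPM over the 4 libraries, by the root mean square difference of log2 CPM after centring each gene. They were Tnc (0.475), Meox1 (0.697), Fam131b (0.813) and Nes (0.842), beside a median of 1.56 over the genes compared. Tnc, the matrix protein tenascin-C, had 8.53 and 12.8 CPM with dinutuximab and 1.76 and 4.12 CPM with sEVs. Likeness over 4 libraries is a description, and Slc7a11 itself rests on 2 to 34 counts.

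On GRCm38 all 10 are protein-coding genes. Slc7a11 (ENSMUSG00000027737) spans chr3:49892526-50443614, Slc3a2 (ENSMUSG00000010095) chr19:8706882-8723369, Slc7a5 (ENSMUSG00000040010) chr8:121881150-121907694 and Slc7a1 (ENSMUSG00000041313) chr5:148327410-148399904, all on the minus strand. Slc7a3 (ENSMUSG00000031297) spans chrX:101079210-101086020, Slc1a4 (ENSMUSG00000020142) chr11:20302180-20332713, Slc38a1 (ENSMUSG00000023169) chr15:96571418-96642913 and Slc38a2 (ENSMUSG00000022462) chr15:96687392-96699730, also on the minus strand. Slc1a5 (ENSMUSG00000001918) spans chr7:16781340-16798274 and Slc6a9 (ENSMUSG00000028542) chr4:117834506-117875198, on the plus strand.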

How the data were processed

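Raw counts for 43432 Ensembl genes were deposited by the authors in a joint table and in 4 single tables, whose 173728 values were all equal. STAR, SAMtools, HTSeq and mm10 appear in the submitters' processing notes, and libraries came from a stranded mRNA kit, per the labels' protocols. The counting strand and annotation release are not given in the sources used here. GENCODE M21 (GRCm38) named 42548 IDs.

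The test was that of edgeR 4.0.16 (R 4.3.3): filterByExpr (13823 genes kept), TMM scaling, the quasi-likelihood F test with group as its only term, and Benjamini-Hochberg adjustment over all genes at 0.05. CPM used TMM-adjusted library sizes, and levels per kilobase used the union of a gene's exons. The main fit was tested on simulated data of all 4 libraries with the same spread for every gene. Changes were placed only in genes above 5 CPM. That simulation therefore does not cover genes as low as Slc7a11, or the fits without 1 tumour. DESeq2 1.42.0, limma-voom (limma 3.58.1), other scalings, filters and lengths, the tumour number as a block, and leaving out each library were alternatives, and a fit without ribosomal RNA genes was chosen after seeing the data.

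The members and lists were chosen with earlier results of these data known. Named genes were all 10 members, up to 4 of lowest p per direction in each other list, and Atf4, Nfe2l2, Slc7a8, Gclc, Gclm and Gpx4. Any further gene was picked with its values known. Some listed genes are not reported here by name. A planned comparison of protein sequences was not made.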

Additional observations from a re-analysis of the deposited data

How the results depend on the processing

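Over all genes, edgeR called 0, also with 3 other scalings, robust dispersions, a filter of 1 CPM, an adjusted p threshold of 0.1, the tables per sample, and without the genes that collect ribosomal RNA reads. DESeq2 called 55 genes, none of them a transporter (its adjusted p of Slc7a11 was not given). Without the low-count filter edgeR called 262 genes and 2 transporters, Slc7a11 and Slc7a1. Leaving out 1 tumour gave between 0 and 316 genes and between 0 and 3 transporters; among these fits the 3, Slc7a11, Slc7a1 and Slc1a4, passed only without sEV tumour 4. Without sEV tumour 3 edgeR called 132 genes and no transporter. In those 2 fits and without the filter, the prior degrees of freedom were infinite, so that all genes shared 1 variance trend, against 6.48 with all tumours and the filter and 14.7 with the block. With the tumour number as a replicate block edgeR called 67 genes and 1 transporter, Slc7a1 (adjusted p = 0.0457); deviations of same-numbered tumours correlated at 0.117, and the labels give the number no meaning. Over the fits without 1 tumour the log2 fold change ranged from -0.33 to 0.17 for Slc1a5 (0.12 without sEV tumour 4) and from -0.56 to 0.34 for Slc6a9, and the other 7 stayed negative in every fit. Total-count scaling moved the unadjusted split from 341 higher and 429 lower to 472 and 321, and the members whose groups did not overlap from 7 to 6 (Slc38a2 overlapped). With the longest transcript length, 8 of 10 members kept their place in the order of levels; the cause of these shifts was not tested. Low counts limit Slc7a11 and Slc7a3.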

Other observations

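Some regulators of the transporters differed more within a group than between groups. Myc had 29.7 and 31.2 CPM in the dinutuximab and sEV tumours numbered 3, and 16.0 and 13.4 CPM in those numbered 4, with a group log2 fold change of -0.04 ± 0.39 (SE). Mycn, counted here as the mouse gene although the mice that gave rise to the line carry a human MYCN transgene, had between 133 and 162 CPM in all 4 tumours. Atf5, a factor of the ATF4 pathway, had 75.1 and 146 CPM in the dinutuximab tumours and 98.3 and 81.3 CPM in the sEV tumours, so that dinutuximab tumour 4, the highest library for 8 of the 10 transporters, was also highest for Atf5. These 3 genes were named after their values were seen, and no test of these differences was made.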
